A study of Mus musculus with 8 samples.

Results

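The Notch genes examined here were 3 receptors (Notch1, Notch2, Notch3), 3 ligands (Jag1, Jag2, Dll1), the receptor-modifying glycosyltransferase Lfng, the DNA-binding effector Rbpj and the target genes Hes1 and Hey1. The list was drawn up with earlier results of these data known. Every probe set whose platform annotation named one of these 10 genes was then taken, whatever its values. That gave 14 probe sets for 9 genes, of 17097 genes measured in all; Jag2 was not analysed here. The cells were bulge cells of back skin from mice aged 15 weeks, 4 labelled G9a cKO and 4 labelled G9a WT, with 1 array for each animal named. G9a is a histone methyltransferase encoded by Ehmt2, and cKO stands for conditional knockout. Skin of both genotypes had received the mutagen DMBA and the tumour promoter TPA, once a week over 6 weeks that began at 8 weeks of age, so no untreated skin enters the comparison. No label used here states the Cre driver or which exons were deleted. The design text speaks of skin before tumours form, and the question put to the Notch genes was which of them differed with the genotype of G9a.

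Notch receptors are membrane proteins that are activated by ligands of the Jagged and Delta families on a neighbouring cell. Ligand binding leads to cleavage of the receptor, and its intracellular part enters the nucleus, where it joins the DNA-binding protein RBPJ and switches on targets such as the repressor genes Hes1 and Hey1. In mouse epidermis Notch signalling promotes the differentiation of keratinocytes that leave the basal layer, and Notch1 acts there as a tumour suppressor. In the hair follicle it maintains cell fates of the follicle lineages.

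Each probe set was read as log2 expression, where a step of 1 is a doubling of signal. They are not levels that can be set against each other between genes, because probe sets differ in how strongly they bind. The targeted gene was checked first. The dimmer of 2 Ehmt2 probe sets read 5.54 to 6.44 in the cKO arrays and 8.89 to 9.29 in the WT arrays, while the brighter read 8.39 to 8.43 and 8.40 to 8.42. The brighter checks nothing about the labels if it lies outside the deleted part. Array medians lay between 5.87 and 5.95. On the first principal component, with 37.3% of the variance, WT replicate 4 lay at 2.92, between the other WT arrays (10.6 to 12.7) and the cKO arrays (-12.2 to -5.95), and the calls below are also given without that array. All 10 bulge markers, Krt15, Cd34 and Lgr5 included, lay at or above percentile 85.0 of all probe sets by mean signal. Percentiles are a rough guide, since probe sets differ in how strongly they bind. None of the 10 had a limma adjusted p under 0.05. Groups did not overlap in 2 of them, against 8.24% of all genes. Krt15 was 0.10 higher in cKO (limma adjusted p = 0.202) and Nfatc1 0.35 lower (limma adjusted p = 0.0566). Markers of 4 other cell types were mostly dim, with 8 of 10 endothelial, 8 of 10 leukocyte, 6 of 9 fibroblast and 4 of 6 mural markers among the lowest 40% of probe sets. Melanocyte markers were not mostly dim, with 3 of 8 among that 40% and a median percentile of 54.8. None of the 9 Notch genes was among that 40%. Of the fibroblast markers 1 fell and 1 rose. Col1a1, a collagen gene at percentile 59.5, read 5.93 to 6.38 in cKO and 6.96 to 7.19 in WT (log2 change -0.91, limma adjusted p = 0.00100; without WT replicate 4, -0.94 and 0.00175). Thy1, a surface protein gene at percentile 67.2, read 7.22 to 7.75 in cKO and 6.77 to 6.98 in WT (0.57, limma adjusted p = 0.0251; without WT replicate 4, 0.60 and 0.0274), a call that was lost in 5 of the 8 fits that each left out 1 array. The part of these markers in the Notch results was not tested.

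Notch3 fell in the cKO cells, by 1.46-fold, and it was the 1 Notch gene past the threshold when each gene was read by its brightest probe set. Jag1 fell by 1.32-fold in its dimmer probe set. By the brightest probe set Jag1 and Hes1 read lower in cKO and Lfng read higher, without passing. Notch1, Notch2, Dll1, Rbpj and Hey1 did not pass by any probe set. The threshold was an adjusted p under 0.05 by limma, over all genes or all probe sets. Of the 9 genes 0 were called higher, against 1.92% of all genes, and 1 was called lower, against 0.836% of all genes. Of the 14 probe sets 3 were called, all lower in cKO, against 1.77% of all probe sets called in either direction. The 4 cKO arrays lay wholly above or below the 4 WT arrays in 4 of the 9 genes, against 8.24% of all genes, and in 7 of the 14 probe sets, against 7.33% of all probe sets. The median log2 change of the 9 genes was -0.11, with 6 below 0 and 3 above, and over all genes it was 0.0027. The median size of the change, without its sign, was 0.15 in the 9 genes and 0.052 over all genes, which include many dim genes whose changes RMA compresses. In bulk RNA of this kind, fewer cells of a type and less RNA per cell cannot be told apart.

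**Figure D1:**
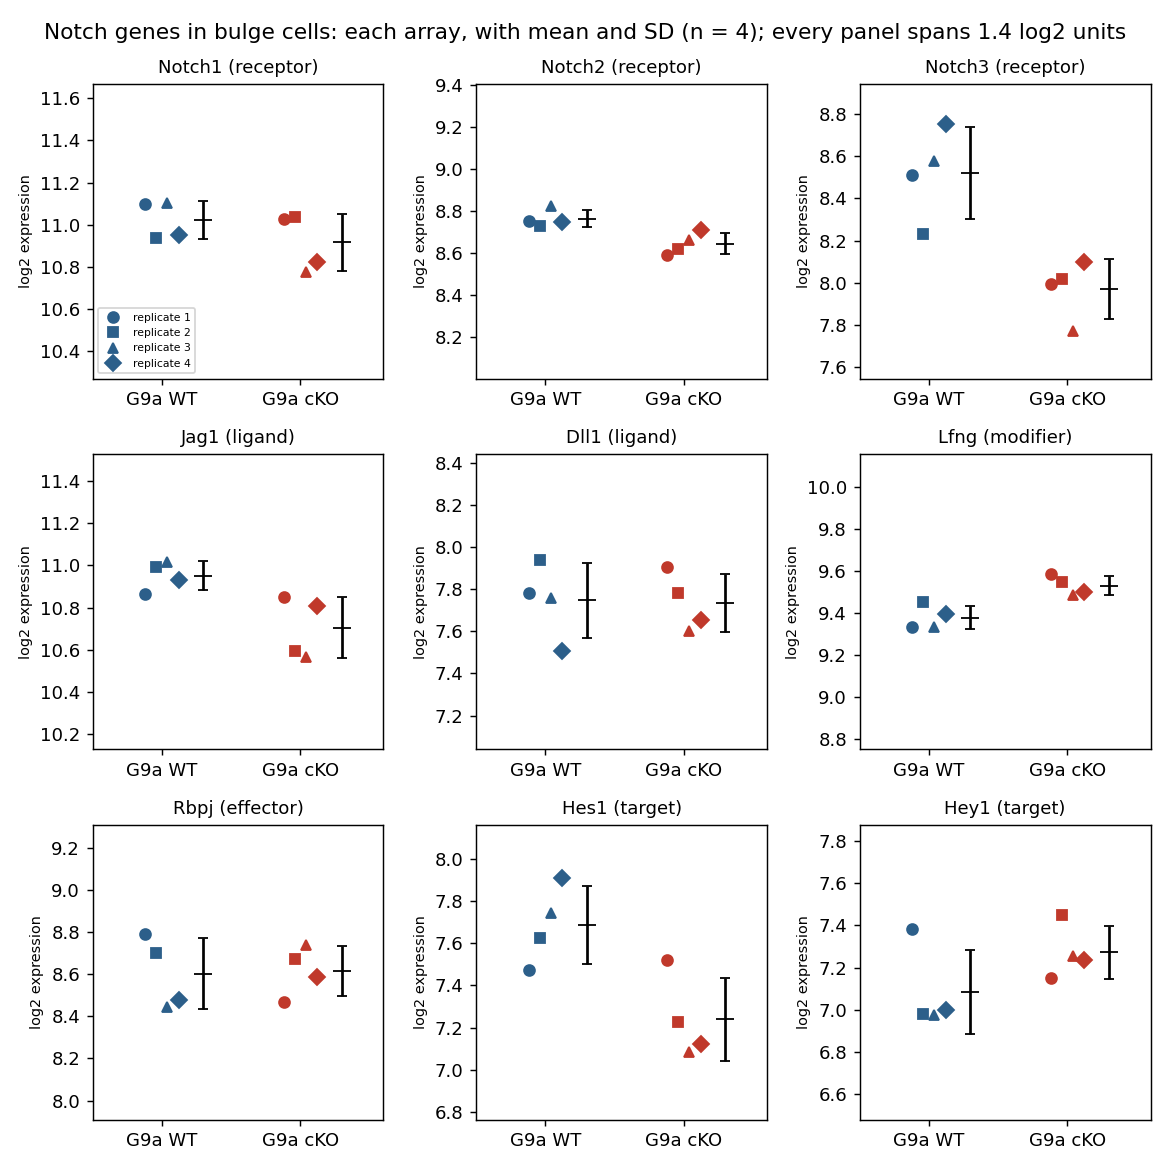
Log2 expression of the 9 Notch genes on each array (y axis, log2) by genotype (x axis), by the brightest probe set of each gene, with 1 marker shape for each replicate number and the mean and SD of 4 arrays in black. Notch3, Jag1 and Notch2 have all 4 cKO arrays below all 4 WT arrays and Lfng has all 4 above, while the Hes1 groups overlap through cKO replicate 1 and WT replicate 1.

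**Figure D2:**
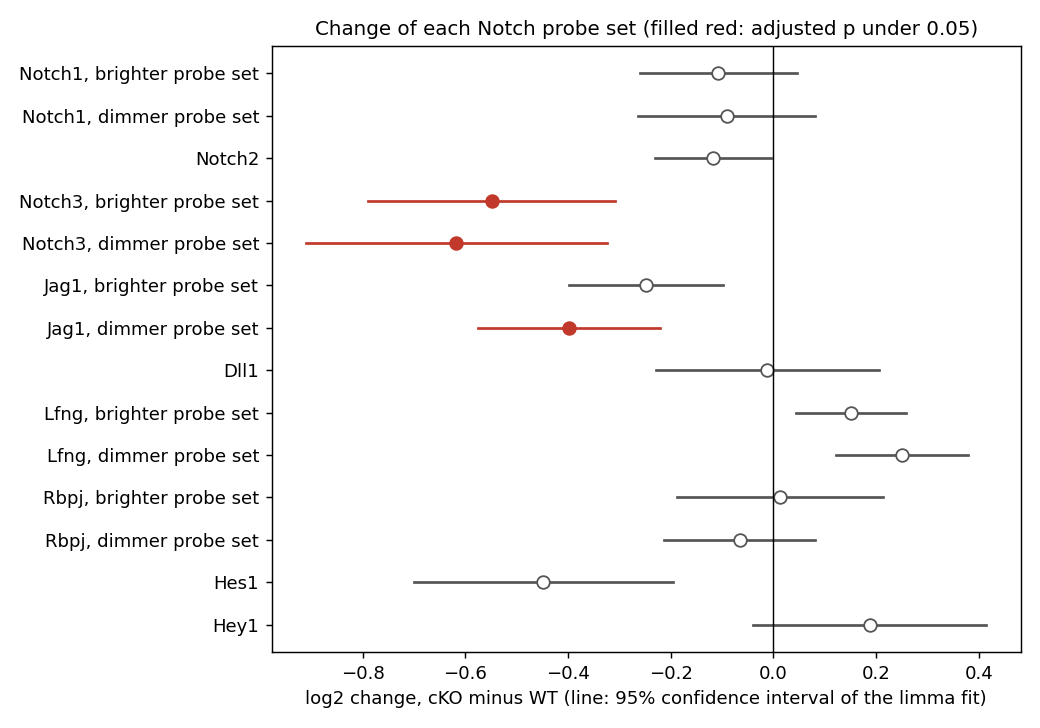
Log2 change, cKO minus WT (x axis), of the 14 Notch probe sets (y axis), with the 95% confidence interval of the limma fit over all probe sets; red filled points have an adjusted p under 0.05. Both Notch3 probe sets and the dimmer Jag1 probe set are past the threshold, and both Lfng probe sets lie above 0.

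The sequences before the annotated start sites of Notch3, Jag1 and Lfng are shown because these genes had every cKO array on one side of every WT array in both of their probe sets, 2 of them lower and 1 higher. Each is the stretch of 250 bases before the start in RefSeq on GRCm38.p6, 5′ to 3′ on the strand of the gene, and capitals mark the core motif of RBPJ on either strand.
Notch3 (chr17:32166891-32167140, minus strand): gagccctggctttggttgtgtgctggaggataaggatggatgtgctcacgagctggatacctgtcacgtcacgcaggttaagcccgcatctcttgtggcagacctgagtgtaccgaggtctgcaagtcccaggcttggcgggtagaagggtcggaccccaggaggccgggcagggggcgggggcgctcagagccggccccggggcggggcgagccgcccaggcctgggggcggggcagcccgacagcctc
Jag1 (chr2:137116521-137116770, minus strand): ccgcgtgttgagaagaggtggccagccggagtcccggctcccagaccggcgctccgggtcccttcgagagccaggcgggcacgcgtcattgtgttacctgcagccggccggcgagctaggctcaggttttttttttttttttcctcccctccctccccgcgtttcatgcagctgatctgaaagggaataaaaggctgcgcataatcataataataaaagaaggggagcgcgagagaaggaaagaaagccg
Lfng (chr5:140607091-140607340, plus strand): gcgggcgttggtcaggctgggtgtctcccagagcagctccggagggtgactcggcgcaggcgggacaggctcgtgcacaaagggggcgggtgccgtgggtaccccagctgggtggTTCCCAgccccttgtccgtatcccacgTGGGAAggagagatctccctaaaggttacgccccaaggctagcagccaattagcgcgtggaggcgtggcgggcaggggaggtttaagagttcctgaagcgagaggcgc

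The RBPJ core searched was TGGGAA on both strands, and 21.6% of the 32851 promoter windows of the same length held it. Of the listed genes 8 matched an entry, with 10 windows, and 3 of those windows held the core, namely that of Lfng and both overlapping windows of Rbpj. The Lfng window held it at bases 135 to 130 before the start, on the opposite strand, and at bases 108 to 103 on the strand of the gene. The latter lies within the longer form GTGGGAA, found in 5.42% of all windows, and overlaps a CACGTG box, a motif bound by HES and HEY proteins that 6.02% of windows held. The other HES motif searched, CACNAG, was found 2 times in the Notch3 window and 1 time each in the Lfng, Notch1 and Notch2 windows. The windows of Jag1, Jag2, Dll1 and Rbpj did not hold it, and 36.7% of all windows had at least 1 match. A match is a description of the letters and not a site, and the windows of Notch3 and Jag1 without a core show only that these letters are not in them.

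Among the receptors, Notch3 read 8.00, 8.02, 7.77 and 8.10 in cKO replicates 1 to 4 and 8.51, 8.23, 8.58 and 8.75 in WT replicates 1 to 4 by its brighter probe set. Every cKO array lay below every WT array, WT replicate 4 was highest and cKO replicate 3 lowest. The means were 7.97 ± 0.14 and 8.52 ± 0.22 (log2, SD, n = 4), a change of -0.55 (95% interval -0.79 to -0.31, SE 0.11; limma adjusted p over all genes = 0.0246). By exact two-sided permutation p was 0.0286, the lowest that groups of 4 can give. The suffix of this probe set marks probes that can match more than 1 transcript. The dimmer Notch3 probe set read 6.56, 6.34, 6.05 and 6.36 in cKO and 6.85, 6.71, 6.92 and 7.29 in WT. Its groups did not overlap either, with the highest array again WT replicate 4 and the lowest again cKO replicate 3. The log2 change, -0.62 (95% interval -0.91 to -0.32, SE 0.13), was a fall of 1.53-fold with a limma adjusted p of 0.0459 over all probe sets. This call was kept in 3 of the 8 fits that each left out 1 array, those without cKO replicate 1, WT replicate 2 or WT replicate 4 (without the last, log2 change -0.50, limma adjusted p = 0.0380). It was lost in the other 5, with limma adjusted p of up to 0.138. The call of the brighter probe set over all genes was lost without cKO replicate 2, cKO replicate 3, WT replicate 1 or WT replicate 3, with limma adjusted p from 0.0648 to 0.0876, and kept without WT replicate 4 (log2 change -0.47, limma adjusted p = 0.0308). Over all probe sets it had a limma adjusted p of 0.0315 and was kept in 2 of the 8 fits, those without WT replicate 2 or WT replicate 4 (for the latter, limma adjusted p = 0.0349). Over the 8 fits that each left out 1 array its log2 change ran from -0.64 to -0.47.

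Notch3 is also known as a gene of mural cells around vessels, and in epidermis Notch receptors and their targets are active above the basal layer. Mural markers had mean levels of 4.99 to 5.11 in the cKO arrays and 4.98 to 5.10 in the WT arrays. Of the 9 listed 6 were measured and none passed, with 4 above 0 and 2 below. An unadjusted limma p under 0.05 was found in 1 of the 6, or 16.7%, against 13.7% of all genes. Of the 6, 83.3% changed by less than 0.2, against 91.1% of all genes. Kcnj8, a marker of pericytes, was among the dimmest at 3.97 ± 0.03 in cKO and 3.94 ± 0.06 in WT (log2, SD, n = 4). Markers of suprabasal keratinocytes had mean levels of 7.50 to 7.65 in cKO and 7.45 to 7.86 in WT, and WT replicate 4, the array with the highest Notch3, was the highest on this list too. Of the 9 suprabasal markers 1 rose (Sbsn, log2 change 0.27, limma adjusted p = 0.00213; without WT replicate 4, 0.28 and 0.00251) and 1 fell (Krtdap, -0.63, limma adjusted p = 0.0115; without WT replicate 4, -0.54 and 0.0127). Both calls were kept in all 8 fits that left out 1 array. The keratins of that layer, Krt1 and Krt10, read 0.0050 and 0.015 higher in cKO on the log2 scale. Others moved more without passing, with Ivl 0.31 higher (limma adjusted p = 0.166) and Lor 0.34 lower (limma adjusted p = 0.574). Of the 9 markers 55.6% changed by less than 0.2, against 91.1% of all genes. The part of these lists in the Notch3 result was not tested.

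Notch1, the receptor with the best known role in epidermal differentiation, read 11.03, 11.04, 10.77 and 10.82 in cKO and 11.10, 10.94, 11.10 and 10.95 in WT. The groups overlapped. Its change was -0.11 (95% interval -0.26 to 0.05, limma adjusted p = 0.577), which keeps a fall of up to 1.20-fold within the interval. The second Notch1 probe set changed by -0.09 (95% interval -0.26 to 0.08). Notch2 read 8.59, 8.62, 8.66 and 8.71 in cKO and 8.75, 8.73, 8.82 and 8.75 in WT. All cKO arrays lay below all WT arrays, but by little: the change was -0.12 (95% interval -0.23 to -0.01, limma adjusted p = 0.318; exact permutation p = 0.0286). Notch3 was set against the other receptors within each array, in 5 pairs of genes of the same role that were compared in all. It changed by 0.44 more than Notch1 and by 0.43 more than Notch2 in the downward direction on the log2 scale, with groups that did not overlap in either pair. The exact two-sided permutation p was 0.0286 for both, or 0.0714 after Benjamini-Hochberg adjustment over the 5 pairs. All 5 pairs, those of ligands and targets below included, were chosen after their values were seen. Their p-values are descriptive only. Since 0.0286 is the lowest that groups of 4 can give, whether the adjusted p passed depended on the other pairs. This test therefore cannot decide whether the fall of Notch3 differed from the changes of Notch1 and Notch2.

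Of the ligands, Jag1 read 10.85, 10.59, 10.57 and 10.81 in cKO and 10.87, 10.99, 11.02 and 10.93 in WT by its brighter probe set. The groups did not overlap, but cKO replicate 1 lay only just below WT replicate 1. The change was -0.25 (SE 0.07, 95% interval -0.40 to -0.10, limma adjusted p over all genes = 0.0999). The dimmer Jag1 probe set read 8.97, 8.78, 8.66 and 8.81 in cKO and 9.26, 9.34, 9.16 and 9.05 in WT. Here too the groups did not overlap, and the change was -0.40 (SE 0.08, 95% interval -0.58 to -0.22, limma adjusted p over all probe sets = 0.0339; exact permutation p = 0.0286). This call was kept when cKO replicate 1 or WT replicate 4 was left out (without the latter, log2 change -0.45, limma adjusted p = 0.0140), and was lost without each of the other 6 arrays, with limma adjusted p of up to 0.123 and log2 changes from -0.45 to -0.35. Both probe sets thus had the same sign and 1 of 2 passed. With the mean of both probe sets Jag1 changed by -0.32 (limma adjusted p = 0.0331).

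Immediate early genes, such as Fos and Egr1, respond quickly to growth factors and to handling of tissue. They moved in the same direction as Jag1, Notch3 and Hes1. All 19 measured lay below 0 and none passed the threshold. An unadjusted limma p under 0.05 was found in 14 of them, or 73.7%, against 13.7% of all genes. Groups did not overlap in 4 of the 19, against 8.24% of all genes. Their mean deviations from the 8-array mean were -0.10, -0.05, -0.26 and -0.25 in cKO and 0.26, 0.35, 0.20 and -0.16 in WT (log2). WT replicate 4 was the lowest WT array on this list and in the dimmer Jag1 probe set, and the highest WT array for Notch3 and Hes1. Without WT replicate 4 the brighter Jag1 probe set changed by -0.25 (limma adjusted p = 0.102). The part of the immediate early genes in the Jag1, Notch3 and Hes1 results was not tested.

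Dll1, a Delta family ligand, read 7.91, 7.78, 7.60 and 7.65 in cKO and 7.78, 7.94, 7.76 and 7.51 in WT. The groups overlapped throughout. The change was -0.01 (95% interval -0.23 to 0.20, limma adjusted p = 0.984), and its sign turned when single arrays were left out. Jag1 changed by 0.24 more than Dll1 in the downward direction on the log2 scale (exact permutation p = 0.0857, or 0.107 adjusted over the 5 pairs), so unequal change of these ligands was not shown.

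**Figure D3:**
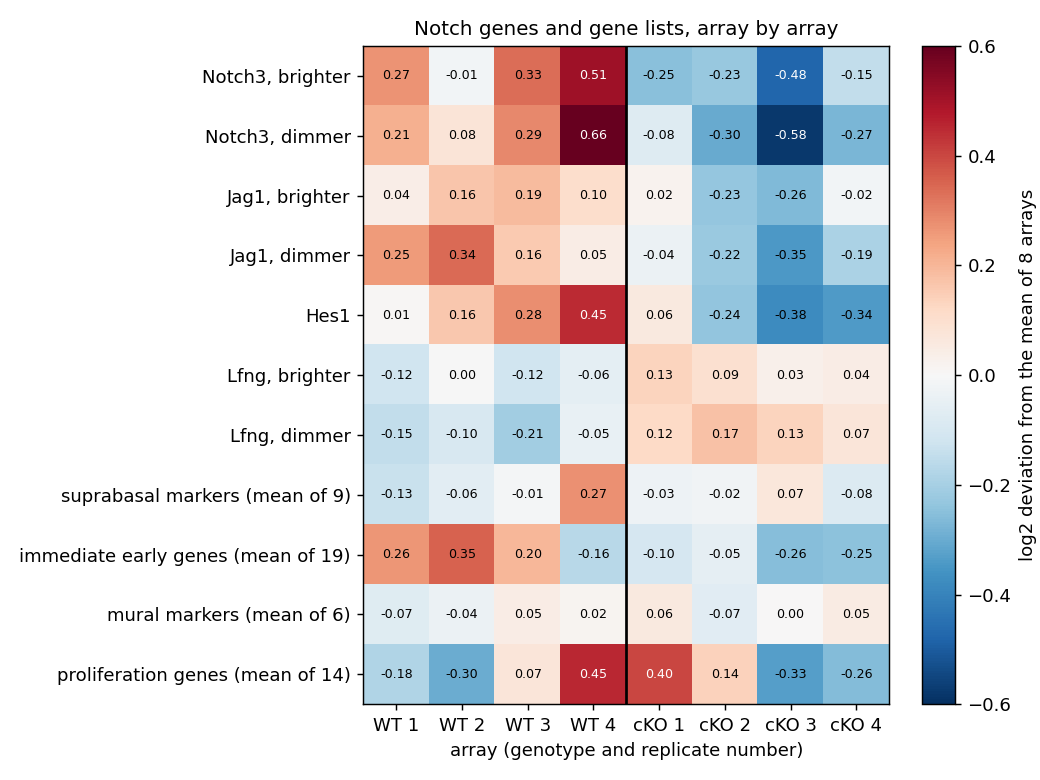
Log2 deviation from the mean of 8 arrays (colour and printed value) for the Notch3, Jag1, Hes1 and Lfng probe sets and for the means of 4 gene lists (rows) on each array (columns, WT left of the line and cKO right). WT replicate 4 has the highest Notch3 and Hes1 and, among WT arrays, the lowest immediate early mean, and the proliferation genes lie between -0.33 (cKO replicate 3) and 0.45 (WT replicate 4) without separating the genotypes.

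Lfng encodes a glycosyltransferase that adds sugars to Notch receptors and so alters which ligands activate them. By its brighter probe set it read 9.59, 9.55, 9.49 and 9.50 in cKO and 9.33, 9.45, 9.33 and 9.39 in WT. All cKO arrays lay above all WT arrays. The change was 0.15 (SE 0.05, 95% interval 0.05 to 0.26, limma adjusted p over all genes = 0.153; exact permutation p = 0.0286). The dimmer probe set read 7.63, 7.68, 7.64 and 7.58 in cKO and 7.36, 7.41, 7.30 and 7.46 in WT. It also separated the genotypes, at 0.25 higher in cKO (SE 0.06) and a limma adjusted p of 0.0666 over all probe sets. Its call depended on the setting, as it passed without WT replicate 4 (limma adjusted p = 0.0346), with array weights and without the trend in the variance model. With the mean of both probe sets Lfng was 0.20 higher (limma adjusted p = 0.0480), which is 1 Notch gene called higher under that setting.

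Rbpj, through which all 3 receptors act on DNA, read 8.47, 8.67, 8.74 and 8.58 in cKO and 8.79, 8.70, 8.44 and 8.48 in WT. The groups overlapped, and the change was 0.01 (95% interval -0.19 to 0.21, limma adjusted p = 0.980). The second Rbpj probe set changed by -0.07 (95% interval -0.21 to 0.08), so the probe sets did not share a sign.

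Of the targets, Hes1, a basic helix-loop-helix repressor, read 7.52, 7.23, 7.09 and 7.12 in cKO and 7.47, 7.62, 7.74 and 7.91 in WT. The groups overlapped at 1 point, since cKO replicate 1 lay above WT replicate 1. The change was -0.45 (SE 0.11, 95% interval -0.70 to -0.20, limma adjusted p = 0.0751; exact permutation p = 0.0571), which did not pass. Without cKO replicate 1 it was -0.54 and passed (limma adjusted p = 0.0221), and without WT replicate 4 it was -0.37 (limma adjusted p = 0.0986). Proliferation genes stood high in cKO replicate 1 (0.40) and low in cKO replicates 3 and 4 (-0.33 and -0.26), the order of Hes1 among these cKO arrays, and their part in the Hes1 values was not tested. Hey1, a relative of Hes1, read 7.15, 7.45, 7.25 and 7.24 in cKO and 7.38, 6.98, 6.97 and 7.00 in WT. The groups overlapped through WT replicate 1, which lay above 3 of the 4 cKO arrays. The change was 0.19 (95% interval -0.04 to 0.41, limma adjusted p = 0.481). Hes1 and Hey1 had opposite signs, and the difference between their changes was -0.64 on the log2 scale (exact permutation p = 0.0571, or 0.0952 adjusted over the 5 pairs).

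The wider pathway held few calls. Of 65 further genes listed for it, 56 were measured, and by the brightest probe set 1 rose and none fell by limma, against 1.92% and 0.836% of all genes. At an unadjusted p under 0.05 there were 8 of the 56, or 14.3%, against 13.7% of all genes. The median log2 change was -0.0044, close to that of all genes. Without its sign the median change was 0.072, against 0.052 over all genes. Of the 56 genes 92.9% changed by less than 0.2, against 91.1% of all genes. The gene that rose was Poglut1, which adds glucose to the extracellular repeats of Notch receptors. It read 8.57, 8.66, 8.55 and 8.60 in cKO and 8.29, 8.30, 8.25 and 8.45 in WT, all cKO arrays above all WT arrays. This was 0.27 higher in cKO on the log2 scale (SE 0.06), or 1.21-fold, with a limma adjusted p of 0.0383 over all genes, and over all probe sets it did not pass (limma adjusted p = 0.0547). This call was kept in 1 of the 8 fits that left out 1 array, the one without WT replicate 4 (limma adjusted p = 0.00999), and lost in the other 7, with limma adjusted p of up to 0.147 and log2 changes from 0.24 to 0.31.

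Of the 13 measured genes that process Notch proteins, Poglut1 was the 1 that passed. The others included the sheddases Adam10 and Adam17 and the gamma-secretase genes Psen2, Ncstn, Aph1a, Aph1b, Aph1c and Psenen. Of the 13 genes 10 lay above 0 and 3 below. Groups did not overlap in 2 of them, Poglut1 and Aph1c, against 8.24% of all genes. Aph1c read 0.14 higher in cKO (limma adjusted p = 0.175) and Aph1b 0.16 higher (limma adjusted p = 0.499). Adam10 read 0.16 lower (limma adjusted p = 0.354). Of 5 further receptors and ligands none passed, and the lowest p was that of Dll4, an endothelial ligand, with a log2 change of -0.06 (limma adjusted p = 0.681); all 5 lay in the lowest 40% of probe sets by signal, where small changes are compressed. None of 14 regulators of receptor and ligand turnover passed. Fbxw7, a ubiquitin ligase component that degrades the active receptor, had the lowest p there by the brightest probe set, with a change of 0.15 (limma adjusted p = 0.249). Nrarp, on the same list, read 0.22 higher in cKO by its brighter probe set (limma adjusted p over all genes = 0.274). Its dimmer probe set read 0.27 higher without overlap (limma adjusted p over all probe sets = 0.0998). Of the 14 genes 7 lay above 0 and 7 below. Among 9 nuclear partners of RBPJ the lowest p was that of the corepressor gene Spen, with a change of -0.13 (limma adjusted p = 0.468). Of 7 other Hes and Hey genes, 6 were in the lowest 40% and none passed. Hes7 had the lowest p, with a change of 0.10 (limma adjusted p = 0.425). Of 8 genes linked to Notch in keratinocytes none passed by its brightest probe set. The lowest p was that of Myc, a growth regulator and Notch target, which read 9.19 to 9.46 in cKO and 9.33 to 10.10 in WT, a change of -0.43 (limma adjusted p = 0.174). Without WT replicate 4, the lowest WT array for Myc, that change was -0.58 and passed (limma adjusted p = 0.00478). Over all 102 probe sets of the 56 genes 1 was called, against 1.77% of all probe sets. It was a dimmer probe set of Cdkn1a, the cell cycle inhibitor p21 on the keratinocyte list, which read 9.65 to 10.03 in cKO and 10.11 to 10.31 in WT without overlap. Its log2 change was -0.41 (limma adjusted p = 0.0294 over all probe sets), against -0.27 for the brightest Cdkn1a probe set (limma adjusted p = 0.197 over all genes). The call of the dimmer probe set was kept in 3 of the 8 fits that left out 1 array, among them that without WT replicate 4 (-0.45, limma adjusted p = 0.0169), and lost in the other 5, with limma adjusted p of up to 0.0980.

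**Figure D4:**
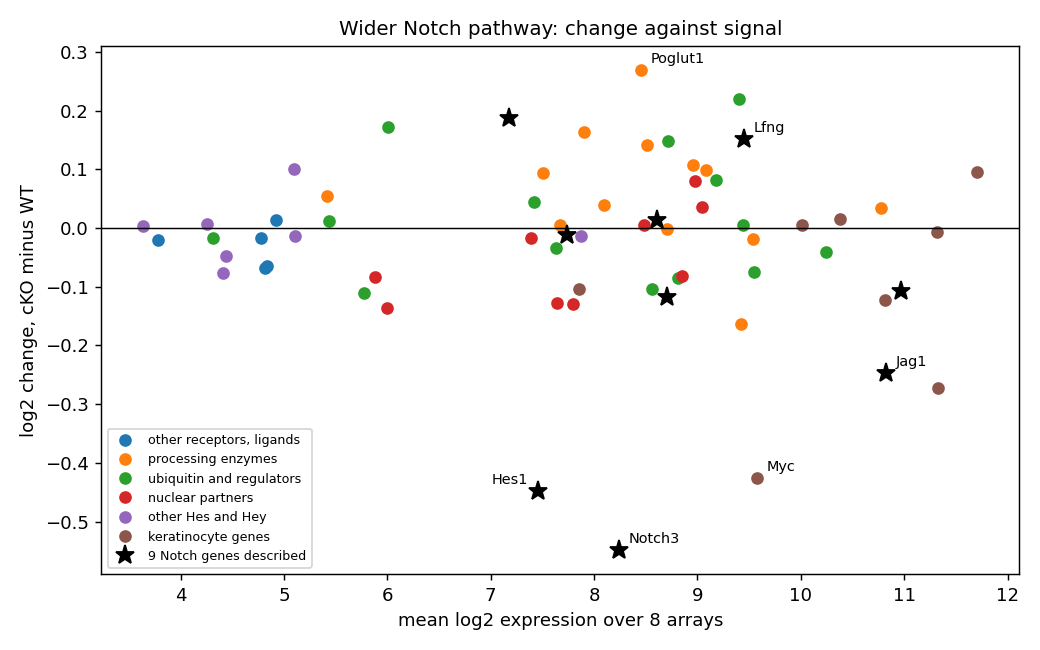
Log2 change, cKO minus WT (y axis), against mean log2 expression over 8 arrays (x axis) for the 9 Notch genes (stars) and 56 further pathway genes (points, coloured by list). Notch3 and Hes1 have the lowest changes of those drawn at -0.55 and -0.45, Poglut1 the highest at 0.27, and the dim receptor, ligand and Hes and Hey genes at the left lie close to 0, with Hes7 at 0.10.

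Notch3 was the Notch gene with the lowest p, and the genes whose array profile was nearest to it were sought among 11280 other genes in the brighter 60% of probe sets. Nearness was the root mean square difference, over the 8 arrays, between deviations of each gene from its own mean. The nearest was F2r, which encodes a thrombin receptor, at 0.058 log2 units. It was followed by Aldh3a1, an aldehyde dehydrogenase gene, at 0.084, and Amdhd2, a gene of amino sugar metabolism, at 0.11. F2r read 7.07 to 7.31 in cKO and 7.38 to 7.93 in WT, without passing (limma adjusted p = 0.0548). Aldh3a1 did not pass either (limma adjusted p = 0.0552), and Amdhd2 passed (limma adjusted p = 0.0167). Like Notch3, F2r was highest in WT replicate 4 and lowest in cKO replicate 3, a likeness that the ranking selects for. This is a ranking over 8 arrays and a description, with no test.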

How the data were processed

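The data are Affymetrix mouse arrays of bulge cell RNA, 4 G9a cKO and 4 G9a WT. RNA was extracted with TRizol and amplified before labelling with biotin, per the labels' protocols. The deposited values are log2 expression per probe set, which the authors made by RMA (background correction, normalization between arrays, summary over probes), as the submitters' processing notes state, without version or settings. Raw array files were not used here, so no call of detection over background was made. The number of arrays limits the precision.

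Probe sets were named by the platform annotation: of 45141, 28898 had 1 gene symbol, 551 had several and were not named, and 15692 had none. Each of 17097 genes was represented by its brightest probe set over 8 arrays and tested with lmFit and eBayes (trend, no covariate) of limma 3.58.1, under R 4.3.3, and all 45141 probe sets were tested in a second fit. Adjusted p-values are Benjamini-Hochberg over all genes or all probe sets, with a threshold of 0.05. The script was tested on simulated data. The titles name an animal for each array; p-values measure the spread between these arrays. Single values used exact two-sided permutation tests. The members, the gene lists, the naming rule (all Notch probe sets, pathway genes past the threshold or with the lowest p in their list, marker genes past the threshold or dim, and the 3 nearest profiles) and the alternatives were chosen with earlier results of these data known. Krt1, Krt10, Krt15, Cd34, Lgr5, Fos, Egr1, further genes named without passing, the dimmer Cdkn1a probe set and the 5 gene pairs were chosen after their values were seen. No pairing by replicate number was seen: the residual correlation of arrays sharing a number ran from -0.53 to 0.03, and 0 of 4 pairs exceeded 0.1. Promoter sequences are from RefSeq, GRCm38.p6. Python 3.11.15 and matplotlib 3.10.9 made the figures.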

Additional observations from a re-analysis of the deposited data

Results flagged for a closer look

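In 2 of the 28 groups of 4 arrays, 1 array lay far from the other 3 relative to the range of its group; chance flags about 1 in 20 groups. For Hey1, WT replicate 1 read 7.38, while the other WT arrays read 6.97 to 7.00. For the dimmer Notch1 probe set, WT replicate 2 read 8.07, while the other WT arrays read 8.26 to 8.28. Without WT replicate 1 the log2 change of Hey1 was 0.29, against 0.19 with all arrays, and it did not pass (limma adjusted p = 0.117).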

How the results depend on the processing

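Of 135 values of the 9 Notch genes under 15 alternatives (a common median, quantile normalization, the lowest 40% of probe sets left out, the mean of all probe sets, no variance trend, array weights, the replicate block and 8 fits without 1 array), 114 kept their sign and side of the threshold, 9 changed sign, 7 gained a call and 5 lost one. Sign changes were in Dll1, whose log2 change ran from -0.092 to 0.051 without 1 array, and in Rbpj, at -0.041 to 0.076 without 1 array and -0.027 with the mean of all probe sets. Notch3 did not pass with the replicate block (-0.55, limma adjusted p = 0.0507), nor in 4 of 8 fits without 1 array, over which its change ran from -0.64 to -0.47. Jag1 passed with the mean of all probe sets (-0.32), with array weights (-0.30) and in 1 fit without 1 array (-0.30 to -0.20 over these). Lfng passed with the mean of all probe sets (0.20). Hes1 passed with a common median (-0.44), array weights (-0.49) and in 1 fit without 1 array (-0.54 to -0.37).

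Notch genes called lower, 1 in the fit reported, numbered 2 with a common median or the mean of all probe sets, 3 with array weights or an adjusted p under 0.1, and 0 with the replicate block, and ran from 0 to 3 without 1 array. Genes called higher, 0 in the fit reported, numbered 1 with the mean of all probe sets. Probe sets called lower, 3 in the fit reported, numbered 5 with array weights and 0 with the replicate block, and ran from 0 to 3 without 1 array. Probe sets called higher numbered 1 without the variance trend, with array weights and at 0.1, and ran from 0 to 1 without 1 array. Over all genes 329 were called higher and 143 lower. These numbered 191 and 77 with the replicate block and ran from 190 to 502 and from 67 to 294 without 1 array, the highest without WT replicate 4, and array weights called 249 lower. No pairing by replicate number was seen in the residuals: 0 of 8 arrays correlated best with its own number. The cause of the other changes was not tested.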
